A study of Rattus norvegicus with 24 samples.

Results

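The comparison set 6 pups exposed to methylazoxymethanol acetate (MAM) directly against 6 pups exposed to Poly I:C, out of 24 pups in the series. All came from Sprague-Dawley dams, and the labels name no genetic change in any group. MAM was given to the dam once at 22 mg/kg and Poly I:C once at 7.5 mg/kg, both into the peritoneum on gestational day 17. The pups were collected 18 h later, on embryonic day 18, and RNA was sequenced from hippocampus and neocortex dissected together. Each group held 3 pups from each of 2 dams, so the dam received the treatment while the pup was the replicate, and p-values measure the spread between pups of few litters. The diet of the MAM and Poly I:C dams is not given in the sources used here. Saline pups (n = 6) took no part in the contrast, and their means are given for part of the genes for reference. Where no saline mean is given, the difference does not tell which of the groups lay apart from saline. The Low Protein pups entered only the estimate of the spread. Levels are called TPM after the authors, although the deposited values sum to only 70350.1 in every pup. Genes entered the comparison when their mean deposited TPM was at least 0.1 in both groups, which 9752 of 17420 genes met.

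Both agents are given to pregnant rats to disturb the brain of the offspring, and they act in different ways. MAM methylates DNA in dividing cells. DNA damage of this kind stabilizes the transcription factor p53, which turns on genes of cell cycle arrest, apoptosis and repair. Poly I:C is a synthetic double-stranded RNA that mimics a viral infection in the dam, and such infections induce interferon-stimulated genes. Chaperones fold proteins in the cytosol, mitochondria and endoplasmic reticulum. Their genes rise in the heat shock response and in the unfolded protein response.

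Adjusted p-values are from limma with the Benjamini-Hochberg method over all 9752 genes, and a gene was called at an adjusted p under 0.05. The test called 210 genes, 2.15% of those tested. Of these, 37 (0.379%) were higher in MAM and 173 (1.77%) were higher in Poly I:C. At an unadjusted p under 0.05 there were 2092 genes (21.5%), 429 higher in MAM (4.40%) and 1663 higher in Poly I:C (17.1%). The differences were small. The median size among called genes was 0.30 on the log2 scale, the smallest was 0.15, and none reached 1, while 14 reached 0.5. The values of the 6 MAM and the 6 Poly I:C pups did not overlap for 402 genes (4.12% of those tested), of which 154 were called. Both litter means of one group lay apart from both litter means of the other for all 210 called genes, and for 50.1% of all genes tested. The saline mean lay between the means of MAM and Poly I:C for 201 of the called genes. This was 95.71% of them against 47.05% of all genes tested, and it is a description, since called genes were selected for the gap between those groups.

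**Figure D1:**
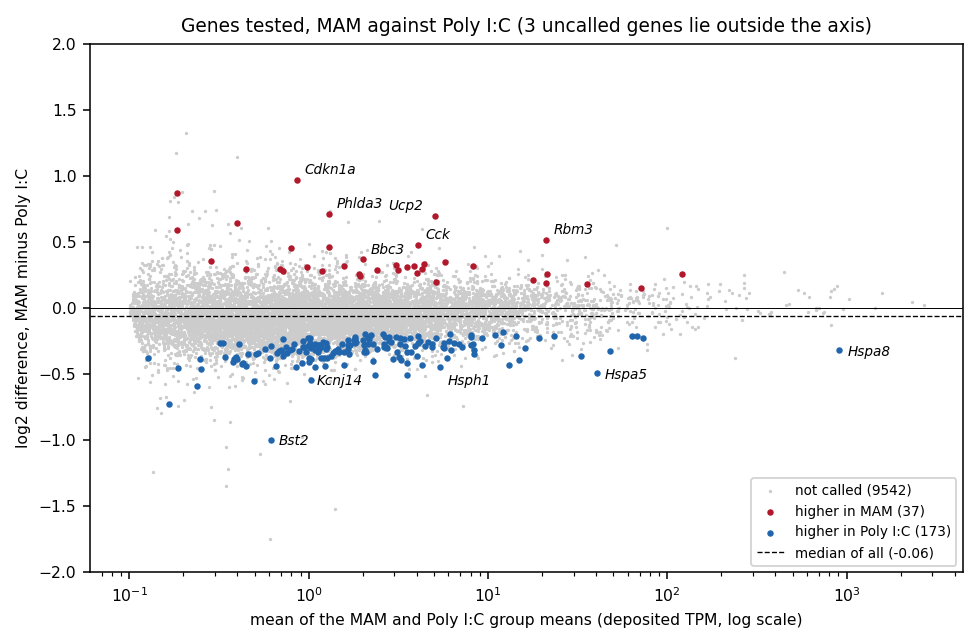
Each point is 1 of the 9752 genes, with the mean level of both groups on the x axis (deposited TPM, log scale) and the log2 difference, MAM minus Poly I:C, on the y axis. The 37 red genes were called higher in MAM and the 173 blue genes higher in Poly I:C, and the median of all genes (dashed) lay at -0.06.

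The excess of genes higher in Poly I:C depended on how the pups were scaled. The median log2 difference over all genes was -0.06, and 65.35% of genes tested had the higher mean in Poly I:C. With median of ratios scaling, 83 genes were called higher in MAM and 96 higher in Poly I:C. With upper quartile scaling the split was 84 and 114, and with trimmed mean scaling it was 112 and 76. All 210 genes kept their sign under these 3 scalings, and 125, 145 and 110 of them were still called. The number called also depended on single pups. It ranged from 15 without MAM pup 2.2 to 291 without MAM pup 2.1. It was 62 without MAM pup 1.1, 126 without MAM pup 1.2, 40 without MAM pup 1.3 and 139 without MAM pup 2.3. Without Poly I:C pup 1.1 it was 62, without pup 1.2 it was 72, without pup 2.1 it was 80 and without pup 2.2 it was 122. The count was 5 without MAM litter 1 (Cdkn1a, Gstm4, Hspa5, Hspa8 and Rbm3) and 1 without MAM litter 2 (Cdkn1a). It was 37 without Poly I:C litter 1 and 43 without Poly I:C litter 2.

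The pups also differed in measures that the treatment does not name. Sequencing depth, estimated relative to the deepest MAM pup, was 52.9 to 100% in MAM (median 67.8%) and 43 to 65.5% in Poly I:C (median 48.45%). Eif2s3y, a gene of the Y chromosome, was above 0.5 TPM in 4 MAM, 2 Poly I:C and 2 saline pups. With Eif2s3y as a covariate, 634 genes were called, among them all 210. Cortical projection neuron markers were abundant in both groups, with a summed level of 257 to 311 TPM in MAM and 260 to 353 TPM in Poly I:C. Those of hippocampal patterning summed to 0.80 to 1.69 TPM over all 12 pups, with 3 of 8 genes tested. These sums cover unlike sets of genes and do not measure how much of each tissue was present. The part of depth and sex in the results below was not tested further.

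A few genes of the p53 response were higher in MAM, led by Cdkn1a. Of 21 p53 target genes tested, 3 were called higher in MAM, against 0.379% of all genes, and none was called higher in Poly I:C. Cdkn1a encodes the cyclin-dependent kinase inhibitor p21, which halts the cell cycle. Its level in MAM pups ran from 1.00 to 1.21 TPM with a median of 1.16, and in Poly I:C pups from 0.386 to 0.744 TPM with a median of 0.586. Every MAM pup was thus above every Poly I:C pup, and also above the highest saline pup at 0.626 TPM. The mean was 1.13 ± 0.081 TPM in MAM and 0.580 ± 0.119 TPM in Poly I:C (SD, n = 6 each). This was 1.95-fold higher in MAM, a log2 difference of 0.97 ± 0.12 (SE), with a limma adjusted p of 0.000299. The exact permutation p over 924 splits of the pups was 0.002165, the smallest such splits allow, and the splits took no account of litter. The saline mean was 0.566 TPM, close to the Poly I:C mean. The call on Cdkn1a held without any single pup and without any single litter, and its adjusted p was 0.0901 in limma on litter means.

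Phlda3 and Bbc3 were the other p53 targets called. Phlda3 encodes a p53-induced repressor of Akt signalling. It ran from 1.22 to 2.05 TPM in MAM (median 1.61) and from 0.733 to 1.21 TPM in Poly I:C (median 1.00). The groups met but did not overlap, since MAM pup 1.1 and Poly I:C pup 1.1 were almost equal. The log2 difference was 0.71 ± 0.16 (SE, limma adjusted p = 0.0283). Bbc3 encodes Puma, a trigger of apoptosis through the mitochondria. Its levels were 2.12 to 2.50 TPM in MAM (median 2.22) and 1.43 to 2.09 TPM in Poly I:C (median 1.77), with no overlap. The log2 difference was 0.37 ± 0.08 (SE, limma adjusted p = 0.0214). The saline means, 1.12 TPM for Phlda3 and 1.89 TPM for Bbc3, lay between the groups. Phlda3 stayed called in 8 of the 12 fits that left out a pup and in none that left out a litter. For Bbc3 this was 10 and 1.

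Other p53 targets gave no call. Aen, an apoptosis-enhancing nuclease, had values that did not overlap, 2.11 to 2.36 TPM in MAM and 1.80 to 1.96 TPM in Poly I:C, with a limma adjusted p of 0.0604. The log2 difference was 0.09 for Ccng1 (cyclin G1), 0.07 for Bax (a pore-forming apoptosis gene) and -0.11 for Mdm2 (the ligase that degrades p53), with limma adjusted p-values of 0.494, 0.490 and 0.290. Thus the differences in MAM did not extend evenly over the list. Its median log2 difference was -0.02 against -0.06 over all genes, 9 members were on the MAM side and 12 on the Poly I:C side, and the sign of the median changed in 12 of 38 alternatives, the scalings among them. The number of calls was 4 under each of the 3 scalings, and Aen was the added one. Its limma adjusted p was 0.0167 with median of ratios, 0.0234 with upper quartile and 0.0161 with trimmed mean scaling. Aen was called in none of the fits that left out a pup. The 6 further members in the table were below the level for testing.

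Of the genes that repair or sense DNA damage, 1 of 20 tested was called (5%, against 2.15% of all genes). Alkbh2 encodes a dioxygenase that removes methyl groups from DNA bases. It ran from 0.676 to 0.852 TPM in MAM (median 0.756) and from 0.513 to 0.679 TPM in Poly I:C (median 0.650), so the lowest MAM pup lay just below the highest Poly I:C pup. The log2 difference was 0.30 ± 0.08 (SE, limma adjusted p = 0.0495), and without single pups the call held in 3 of 12 fits. Alkbh7, a related mitochondrial protein, is not in the repair list and was named for the size of its difference. It was also higher in MAM, at 6.45 ± 0.434 against 5.07 ± 0.498 TPM (SD), with a limma adjusted p of 0.0457. Alkbh7 stayed called in 1 of those 12 fits and, among the other scalings, only with the upper quartile. For the repair list as a whole the median was -0.07, with 6 members on the MAM side and 14 on the Poly I:C side. Apoptosis genes outside the p53 list had no call among 17 tested in limma. At an unadjusted p under 0.05, 2 were higher in MAM (4.40% of all genes were) and 4 higher in Poly I:C (17.1% of all genes). Mcl1, which protects from apoptosis, was nearest, at 12.0 to 13.3 TPM in MAM and 13.7 to 16.8 TPM in Poly I:C (limma adjusted p = 0.0512).

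**Figure D2:**
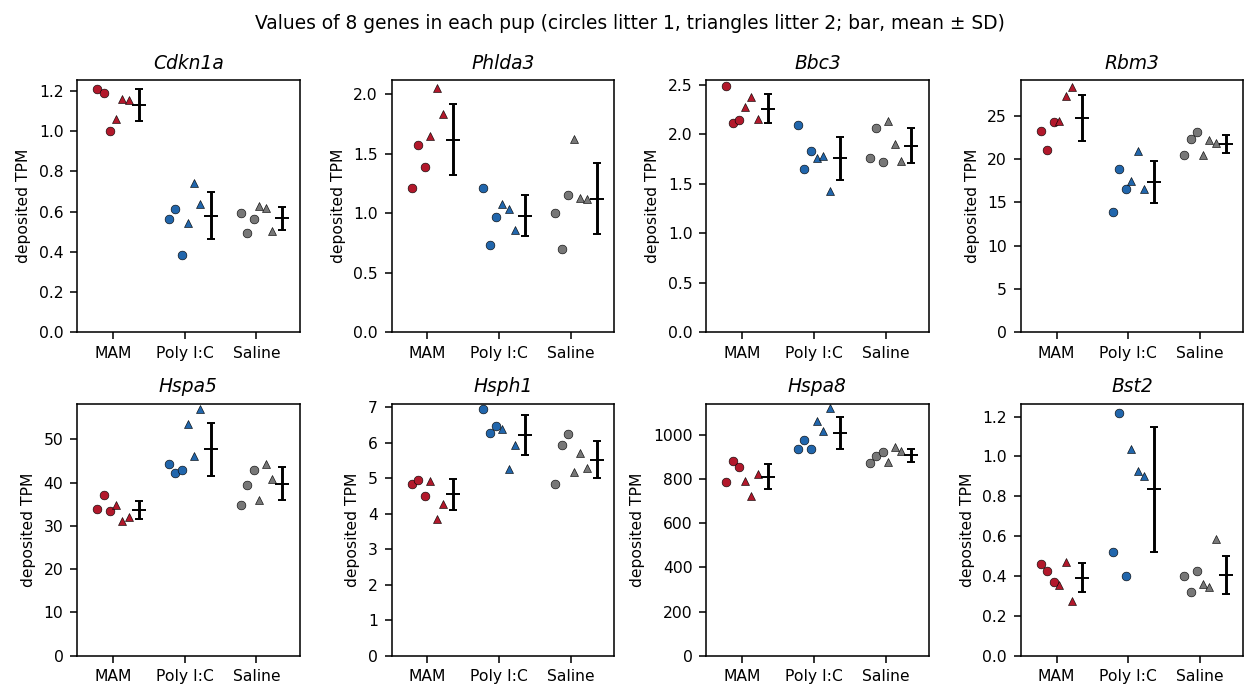
Deposited TPM of 8 genes in each MAM, Poly I:C and saline pup, with circles for litter 1, triangles for litter 2 and bars for the mean ± SD of 6 pups. Cdkn1a, Phlda3, Bbc3 and Rbm3 were higher in MAM and Hspa5, Hsph1, Hspa8 and Bst2 higher in Poly I:C, and the pups of both groups overlapped for Bst2 alone among the 8.

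Other genes called higher in MAM had varied roles. Rbm3, a cold-inducible RNA-binding protein, was 21.1 to 28.4 TPM in MAM (median 24.3) and 13.9 to 20.9 TPM in Poly I:C (median 17.0). The groups did not overlap, and the gene was 1.43-fold higher in MAM, a log2 difference of 0.52 ± 0.08 (SE, limma adjusted p = 0.00228). The saline mean, 21.7 TPM, lay between. The related cold-inducible gene Cirbp was 17.7 ± 1.64 TPM in MAM and 15.7 ± 1.59 TPM in Poly I:C, without a call (limma adjusted p = 0.159). Cck, which encodes the neuropeptide cholecystokinin, was 4.28 to 5.07 TPM in MAM (median 4.75) and 2.76 to 4.17 TPM in Poly I:C (median 3.38). Its log2 difference was 0.48 ± 0.09 (SE, limma adjusted p = 0.0174), with no overlap. Rbm3 and Cck stayed called in all 12 fits that left out a pup and under each other scaling. Of the fits that left out a litter, Rbm3 stayed called in 3 and Cck in 1. In limma on litter means the adjusted p was 0.333 for both.

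Several others act in metabolism or at membranes. Ucp2, an uncoupling protein of the mitochondrial membrane, was 5.11 to 7.34 TPM in MAM and 2.93 to 5.02 TPM in Poly I:C, a log2 difference of 0.69 ± 0.17 (SE, limma adjusted p = 0.0371). Lsr, a lipoprotein receptor of cell junctions, had means of 1.5 TPM in MAM and 1.09 TPM in Poly I:C (limma adjusted p = 0.0214). Syngr1, a synaptic vesicle protein, had means of 0.916 and 0.680 TPM (limma adjusted p = 0.0398). None of these overlapped between the groups. Ucp2 and Syngr1 stayed called in 3 of the 12 fits that left out a pup, and Lsr in 11, but none of them without a litter. Gstm4, a glutathione transferase, differed by 0.32 ± 0.06 on the log2 scale (limma adjusted p = 0.00896). Crym, which binds thyroid hormone, differed by 0.34, and Galk1, a galactokinase, by 0.32. Enzymes of fatty acid and ketone breakdown were also among the 37, namely Acat1 (0.26), Ech1 (0.20) and Acaa1a (0.25 on the log2 scale). The stress transcription factor Maff was 0.224 TPM in MAM and 0.146 TPM in Poly I:C on average, a log2 difference of 0.59 (limma adjusted p = 0.0371), and its level is low.

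Chaperones were higher in Poly I:C than in MAM. Of 17 genes of the protein folding stress list tested, 8 were called higher in Poly I:C and none higher in MAM, against 1.77% of all genes called in that direction. All 17 had the higher mean in Poly I:C. The median log2 difference was -0.24, against -0.06 over all genes, and 14 members were at an unadjusted p under 0.05. The sign of the median was the same in all 38 alternatives. Under median of ratios, upper quartile and trimmed mean scaling, 4, 5 and 4 members were called. The count was 2 without MAM pup 2.2, 1 without MAM litter 1, 0 without MAM litter 2 and 2 without Poly I:C litter 2, and 4 to 7 without any other single pup.

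The proximal promoters of 3 of these genes (Hspa5, Hsp90b1 and Hsph1) and of Hspa8, a chaperone outside the list, are shown because they hold short motifs for the factors of the stress responses, as deposited in RefSeq for the assembly GRCr8. Each sequence is the 250 bases before the transcription start, 5′ to 3′ on the strand of the gene. For Hspa5 and Hsp90b1 the capitals mark the ER stress element (CCAAT, 9 bases of any kind, then CCACG) on either strand. For Hsph1 and Hspa8 they mark the heat shock element (GAA, 2 bases of any kind, TTC, 2 more, then GAA), also on either strand. The windows are chr3:38452766-38453015 (plus strand), chr7:23012294-23012543 (minus), chr12:10427118-10427367 (plus) and chr8:50080264-50080513 (plus).
Hspa5: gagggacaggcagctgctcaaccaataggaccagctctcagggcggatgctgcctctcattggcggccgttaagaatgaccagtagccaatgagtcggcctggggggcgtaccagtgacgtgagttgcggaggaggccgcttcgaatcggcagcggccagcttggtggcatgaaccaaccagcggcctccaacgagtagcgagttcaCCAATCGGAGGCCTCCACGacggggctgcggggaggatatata
Hsp90b1: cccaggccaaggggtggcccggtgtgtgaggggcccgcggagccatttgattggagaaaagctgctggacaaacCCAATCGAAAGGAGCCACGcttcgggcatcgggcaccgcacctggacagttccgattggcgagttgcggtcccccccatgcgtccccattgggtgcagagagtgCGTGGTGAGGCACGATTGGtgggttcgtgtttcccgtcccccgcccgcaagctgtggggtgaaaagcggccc
Hsph1: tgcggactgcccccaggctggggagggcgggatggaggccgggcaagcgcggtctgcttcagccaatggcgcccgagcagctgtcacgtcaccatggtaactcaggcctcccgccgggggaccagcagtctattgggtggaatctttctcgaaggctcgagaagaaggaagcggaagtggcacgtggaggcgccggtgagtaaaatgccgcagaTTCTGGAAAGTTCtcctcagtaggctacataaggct
Hspa8: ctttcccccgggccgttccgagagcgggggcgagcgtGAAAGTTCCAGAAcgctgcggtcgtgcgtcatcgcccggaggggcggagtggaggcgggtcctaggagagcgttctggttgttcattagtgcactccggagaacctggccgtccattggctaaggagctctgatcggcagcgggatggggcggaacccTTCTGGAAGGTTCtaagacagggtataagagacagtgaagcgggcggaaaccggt
The ER stress element was found in 0.0765% of all 27457 promoters of the same length and in 0.199% of the 7550 promoters matched to genes tested. Of 141 promoters matched to genes called higher in Poly I:C, 4 held it (2.84%), those of Hspa5, Hsp90b1, Calr and Canx. The heat shock element was in 0.597% of all promoters, in 0.371% of those of genes tested and in 4 of the same 141, namely Hspa8, Hsph1, Hspd1 and Bst2. None of the 30 promoters matched to genes called higher in MAM held either motif. The p53 response element was searched as paired copies of RRRCWWGYYY (R is A or G, W is A or T, Y is C or T) without a mismatch. In this exact form it was found in none of those 30 nor in the 20 matched to the p53 list, Cdkn1a and Phlda3 among them. It was in 0.0364% of all promoters and in 0.053% of those of genes tested. Motifs this rare are unlikely to be met in 20 or 30 promoters, near matches were not counted, and sites outside the 250 bases were not searched. The absence of exact matches therefore says nothing about these genes. The Cdkn1a window, for example, holds a full copy of RRRCWWGYYY directly followed by a near copy. The windows of Hyou1 and Pdia4 held no ER stress element. A match describes the letters only. Motif and list share their history, since the chaperone genes are those in which these elements were described.

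Hspa5 led the endoplasmic reticulum chaperones. It encodes BiP, the main chaperone of that compartment and the sensor of its load. It ran from 31.1 to 37.1 TPM in MAM (median 33.6) and from 42.2 to 56.9 TPM in Poly I:C (median 45.2). All Poly I:C pups were above all MAM pups. The mean was 33.7 ± 2.12 against 47.7 ± 6.12 TPM (SD, n = 6 each), 1.41-fold higher in Poly I:C, and the log2 difference was -0.49 ± 0.07 (SE, limma adjusted p = 0.00228, exact permutation p = 0.002165). The saline mean was 39.7 TPM, between the groups. Hspa5 stayed called without any single pup, under each scaling and in 3 of the fits that left out a litter.

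Further chaperones and folding enzymes of the same compartment were called on the same side as Hspa5. Hsp90b1 (Grp94) was 11.3 to 14.9 TPM in MAM (median 12.9) and 16.1 to 18.0 TPM in Poly I:C (median 16.8), with no overlap. Its log2 difference was -0.39 ± 0.08 (SE, limma adjusted p = 0.0205). Hyou1, an exchange factor for BiP, was 6.92 to 8.04 TPM in MAM and 8.00 to 9.74 TPM in Poly I:C, a log2 difference of -0.27 (limma adjusted p = 0.0198), and the ranges overlapped slightly. The disulfide isomerases Pdia4 and Pdia6 differed by -0.33 and -0.22 (limma adjusted p = 0.0283 and 0.0462), without overlap. The lectin chaperones Calr and Canx differed by -0.21 and -0.27 (limma adjusted p = 0.0476 and 0.0498). These 4 depended on the scaling. Pdia6, Calr and Canx were called under none of the other scalings, and Pdia4 only with the upper quartile. Xbp1, a transcription factor of the unfolded protein response, was 11.5 TPM in MAM and 13.4 TPM in Poly I:C without a call (limma adjusted p = 0.0644).

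Several chaperones of the cytosol and of mitochondria were higher in Poly I:C as well. Of 22 tested genes whose symbols begin with Hsp, counted after their values were seen, 18 were higher in Poly I:C by sign. Among the 22, 8 were called higher in Poly I:C and none in MAM. Over all genes, 65.35% were higher in Poly I:C by sign and 1.77% were called so. Hsph1, a disaggregase of the Hsp110 family, was 3.85 to 4.95 TPM in MAM (median 4.67) and 5.27 to 6.95 TPM in Poly I:C (median 6.33), with no overlap. It was 1.37-fold higher in Poly I:C, a log2 difference of -0.45 ± 0.08 (SE, limma adjusted p = 0.00896). Hspa8, the constitutive cytosolic Hsp70, was abundant, at 722 to 885 TPM in MAM (median 809) and 938 to 1123 TPM in Poly I:C (median 999.6). The groups did not overlap, and the log2 difference was -0.32 ± 0.05 (SE, limma adjusted p = 0.00676). With trimmed mean scaling its adjusted p was 0.0557. Hspa8 has near-identical copies in the genome, and how the counting divided their reads is uncertain.

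Among the mitochondrial chaperones, Hspd1 (Hsp60) was 6.80 to 7.73 TPM in MAM and 8.81 to 10.7 TPM in Poly I:C. Hspa9 (mortalin) was 4.63 to 5.45 TPM in MAM and 6.01 to 6.42 TPM in Poly I:C. Both pairs of ranges were clear of each other. The log2 differences were -0.35 and -0.30 (limma adjusted p = 0.0234 and 0.0207). Hspa4, a cytosolic exchange factor, differed by -0.36 and Hspa14 by -0.29 (limma adjusted p = 0.0297 and 0.0224). Fkbp4 and Stip1, co-chaperones of Hsp90, differed by -0.21 and -0.20 (limma adjusted p = 0.0239 and 0.0371). The stress-inducible Hsp90aa1 was 7.30 ± 0.487 TPM in MAM and 9.06 ± 0.774 TPM in Poly I:C without a call (limma adjusted p = 0.0644). Hspd1, Hspa9 and Hspa4 stayed called under each other scaling, while Hspa14 and Stip1 did so under none.

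**Figure D3:**
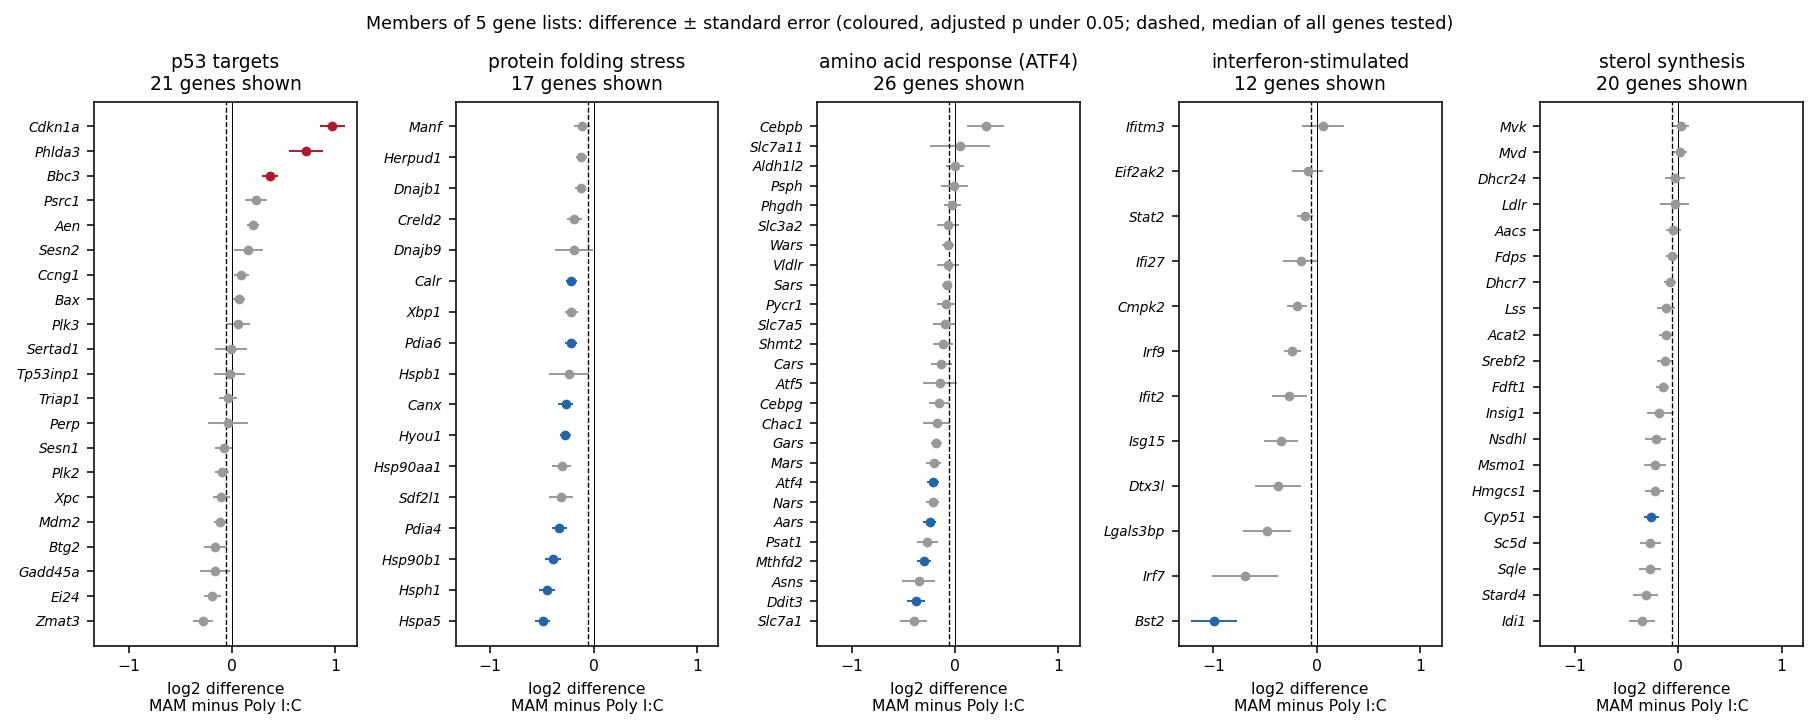
Log2 difference, MAM minus Poly I:C, with its standard error (x axis) for tested members (y axis) of 5 gene lists, coloured where the adjusted p was under 0.05. All 17 protein folding stress genes lay to the left of 0, as did the interferon-stimulated genes shown other than Ifitm3, while the p53 targets were spread around it with Cdkn1a, Phlda3 and Bbc3 at the right.

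Genes of the amino acid response, which the factor ATF4 drives when amino acids are short or folding is disturbed, were on the Poly I:C side. Of 26 tested, 4 were called higher in Poly I:C (15.4%, against 1.77% of all genes) and none higher in MAM, and the median log2 difference was -0.14. By sign, 24 were higher in Poly I:C, as were 65.35% of all genes. Ddit3, which encodes the stress factor CHOP, was 0.881 to 1.09 TPM in MAM (median 1.03) and 1.22 to 1.43 TPM in Poly I:C (median 1.33), with no overlap. Its log2 difference was -0.38 ± 0.09 (SE, limma adjusted p = 0.0314). Mthfd2, a mitochondrial folate enzyme, differed by -0.30 (limma adjusted p = 0.0261), and Atf4 itself by -0.21 (limma adjusted p = 0.0495). For Atf4 the Poly I:C mean of 68.0 TPM was near the saline mean of 68.4 TPM, and the MAM mean of 58.6 TPM was the lower. The alanyl-tRNA synthetase Aars differed by -0.25 (limma adjusted p = 0.0452). All 4 calls were lost under median of ratios, upper quartile and trimmed mean scaling, and the list's median kept its sign in all 38 alternatives.

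Several amino acid genes were apart without a call. Asns, asparagine synthetase, was 0.665 to 0.902 TPM in MAM and 0.956 to 1.15 TPM in Poly I:C, with no overlap but a limma adjusted p of 0.198. Psat1, of serine synthesis, had means of 1.73 and 2.10 TPM (limma adjusted p = 0.137). Slc7a1, a transporter of cationic amino acids, had the largest estimate of the list at -0.40 (limma adjusted p = 0.0907). The synthetases Lars, Rars and Tars, which charge transfer RNA with leucine, arginine and threonine, were called higher in Poly I:C, by -0.31, -0.24 and -0.24 on the log2 scale (limma adjusted p = 0.0207, 0.0398 and 0.0239). Rars and Tars were called under none of the other scalings, and Rars stayed called in 3 of the 12 fits that left out a pup.

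Of 34 interferon-stimulated genes in the table, 21 were below the level for testing, and 1 of the other 13, Bst2, was called. The level had to be met in both groups, so a gene below 0.1 TPM in MAM went untested whatever its level in Poly I:C. Among the 21 without a test, 20 had the higher mean in Poly I:C and 1 in MAM. Over all untested genes with a value above the deposited offset, 59.78% were higher in Poly I:C. Bst2 encodes tetherin, which holds budding viruses at the cell surface. Its promoter, chr16:18254968-18255217 (minus strand, GRCr8), is shown because it holds 2 overlapping copies of the interferon-stimulated response element (GAAA, 2 bases of any kind, then GAAA, searched on both strands), in capitals. The same window also holds a heat shock element.
Bst2: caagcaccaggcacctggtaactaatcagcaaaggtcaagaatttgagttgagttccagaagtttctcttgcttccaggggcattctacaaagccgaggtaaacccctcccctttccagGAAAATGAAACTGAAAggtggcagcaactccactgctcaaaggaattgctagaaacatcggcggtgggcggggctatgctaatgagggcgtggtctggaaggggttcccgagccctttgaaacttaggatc
This element was in 3.29% of all promoters and in 2.36% of those of genes tested. Of 24 promoters matched to the interferon list, 16 held it. It was in 3 of the 141 promoters of genes called higher in Poly I:C (2.13%), a share near that of all genes tested.

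Bst2 was 0.275 to 0.471 TPM in MAM (median 0.396) and 0.402 to 1.22 TPM in Poly I:C (median 0.914). The ranges overlapped, since Poly I:C pups 1.1 and 1.3, at 0.520 and 0.402 TPM, were close to the MAM pups. The mean was 2.13-fold higher in Poly I:C, a log2 difference of -0.99 ± 0.22 (SE, limma adjusted p = 0.0262, exact permutation p = 0.0108). The saline mean was 0.405 TPM, next to the MAM mean of 0.392 TPM. The call held under each scaling, in 7 of the 12 fits that left out a pup and in 1 of those that left out a litter.

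The median of the 13 interferon-stimulated genes tested was -0.24 and 12 were higher in Poly I:C by sign, 5 of them at an unadjusted p under 0.05 (17.1% of all genes). Irf7, a regulator of interferon genes, was 0.0934 to 0.257 TPM in MAM and 0.108 to 0.402 TPM in Poly I:C (limma adjusted p = 0.211). Isg15, a ubiquitin-like modifier, had means of 0.975 and 1.24 TPM (limma adjusted p = 0.220). Irf9, part of the interferon-activated complex, had means of 1.43 and 1.68 TPM (limma adjusted p = 0.119). Groups overlapped for all 3. Ifi47, an interferon-inducible GTPase outside the list, was called at a low level, 0.121 TPM in MAM and 0.212 TPM in Poly I:C (log2 difference -0.73, limma adjusted p = 0.0499). Class I antigen presentation had no call among 11 genes in limma, with 1 higher in Poly I:C at an unadjusted p under 0.05, and a median of -0.02. Cytokine and STAT3 signalling had none among 11, with 1 higher in MAM and 2 higher in Poly I:C unadjusted. Its acute phase gene Lcn2 had a mean of 0.216 TPM in MAM and 0.12 TPM in Poly I:C (limma adjusted p = 0.0513). Lcn2 was called under median of ratios, upper quartile and trimmed mean scaling (limma adjusted p = 0.038, 0.0429 and 0.0371). The 15 microglia genes tested had no call, a median of 0.08 and 1 gene higher in MAM unadjusted.

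Sterol synthesis was on the Poly I:C side with 1 call in 21 genes (4.76%, against 1.77% of all genes). Cyp51, a demethylase of the cholesterol pathway, was 4.91 to 5.65 TPM in MAM (median 5.12) and 5.79 to 6.84 TPM in Poly I:C (median 6.23), with no overlap. Its log2 difference was -0.26 ± 0.07 (SE, limma adjusted p = 0.0499), and it was called under none of the other scalings. The list had a median of -0.15, 19 members higher in Poly I:C by sign (65.35% of all genes were) and 10 of them at an unadjusted p under 0.05 (17.1% of all genes). Hmgcs1, an early enzyme of the pathway, had means of 15.7 TPM in MAM, 18.4 TPM in Poly I:C and 20.0 TPM in saline. Its saline mean was above both groups, and it was not called (limma adjusted p = 0.152).

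Several other genes called higher in Poly I:C encode nuclear proteins that handle RNA and DNA. Tra2a, a splicing activator, was 2.48 to 2.98 TPM in MAM (median 2.87) and 3.49 to 4.12 TPM in Poly I:C (median 3.62), a log2 difference of -0.40 ± 0.06 (SE, limma adjusted p = 0.00228). Ints13, of the Integrator complex that processes nascent RNA, differed by -0.45 (limma adjusted p = 0.00375). The splicing factor Srsf10 differed by -0.37 (limma adjusted p = 0.0174), and Tardbp, which encodes the RNA-binding protein TDP-43, by -0.43 (limma adjusted p = 0.0252). None of these overlapped between groups, and all 4 were called under each scaling. Top1, DNA topoisomerase I, differed by -0.44, the nuclear pore protein Nup153 by -0.44, the helicase Dhx9 by -0.43 and the nuclear scaffold protein Hnrnpu by -0.32 (limma adjusted p = 0.0234, 0.0302, 0.0416 and 0.0499). Outside this group, the potassium channel gene Kcnj14 differed by -0.51 (limma adjusted p = 0.0205). Trim15 (-0.55), the zinc finger genes Zfp638 (-0.54) and Zfp566 (-0.45), Ormdl1 (-0.44), a regulator of sphingolipid synthesis, and LOC100911576 (-0.50) completed the 12 with the largest differences at a mean of at least 0.5 TPM.

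Called genes differed in genomic span, the length from transcription start to end. The median span was 8773 bases for genes called higher in MAM, 26975 bases for those called higher in Poly I:C and 19533 bases for all genes tested. Across 9623 genes in 6 bins of span, the median log2 difference went from 0.02 in the shortest bin to -0.11 in the longest. The shift was not uniform among the pups. In the longest bin, MAM pup 2.1 stood with 3 of the Poly I:C pups above the mean, and the other 3 Poly I:C pups were below it. After the trend on span was removed in each pup, 61 genes were called higher in MAM and 71 higher in Poly I:C, and 99 of the 210 were still called. Cdkn1a, Phlda3, Bbc3, Rbm3, Hspa5, Hsph1, Hspa8 and Bst2 were among them.

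**Figure D4:**
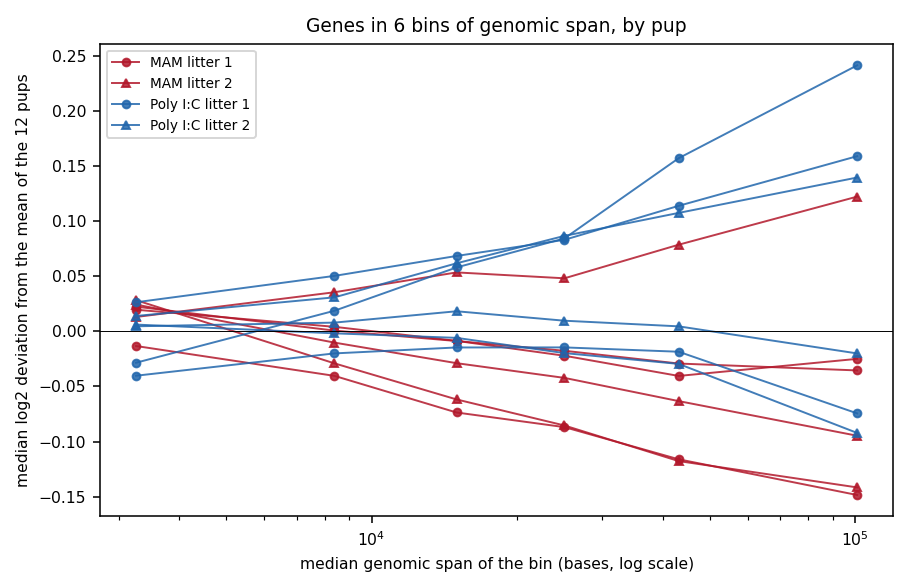
Median log2 deviation from the mean of the 12 pups (y axis) in 6 bins of genes by genomic span (x axis, log scale), 1 line per pup. In the longest bin 3 Poly I:C pups and MAM pup 2.1 lay above 0, and the other 5 MAM and 3 Poly I:C pups lay below it.

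Cell cycle and growth lists had no more than single calls. DNA replication genes had no call among 23 in limma and 4 higher in Poly I:C at an unadjusted p under 0.05, a share near the 17.1% of all genes, with a median of -0.13 whose sign changed without Poly I:C litter 2. Mcm4, a subunit of the replicative helicase, was nearest, at 2.80 TPM in MAM and 3.50 TPM in Poly I:C (limma adjusted p = 0.0604). Pcna, the sliding clamp of replication, had means of 19.1 and 22.5 TPM (limma adjusted p = 0.154). G2 and mitosis genes had no call among 24 in limma and 2 higher in MAM unadjusted. Ccnb2, a mitotic cyclin, had means of 18.2 and 15.3 TPM (limma adjusted p = 0.0898), while Mki67, a proliferation marker, went the other way at 2.33 and 2.93 TPM (limma adjusted p = 0.268). Histones had none among 20, with 2 higher in MAM and 1 higher in Poly I:C unadjusted.

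Ribosomal protein genes had no call among 81 in limma. At an unadjusted p under 0.05, 19 were higher in MAM (4.40% of all genes were) and none higher in Poly I:C (17.1% of all genes). By sign, 61 of 81 were higher in MAM, as were 34.65% of all genes. The median was 0.06 and above 0 in all 38 alternatives. Rpl41 had means of 487 TPM in MAM and 403 TPM in Poly I:C (limma adjusted p = 0.0800). Ribosomal genes are short, with a median span of 3126 bases, and have many processed copies whose reads may be divided. Mitochondrial ribosomal genes had no call among 69 in limma, with 2 higher in MAM and 9 higher in Poly I:C unadjusted. Oxidative phosphorylation had 1 call in 69 (1.45%, against 2.15% of all genes), Ndufs1 of complex I. Ndufs1 was 1.10 to 1.36 TPM in MAM and 1.46 to 1.61 TPM in Poly I:C (log2 difference -0.32, limma adjusted p = 0.0207). The proteasome had 1 call in 34 (2.94%), a share near that of all genes. This was Psmd5, a chaperone of its assembly, at -0.19 (limma adjusted p = 0.0498), and the call was lost without any 1 of the 12 pups.

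Markers of cell types gave no call in limma, and over all genes 4.40% were higher in MAM and 17.1% higher in Poly I:C at an unadjusted p under 0.05. Fewer cells of a type and less RNA per cell cannot be told apart in tissue of this kind. Radial glia had 17 genes tested, a median of -0.11 and 3 genes higher in Poly I:C at an unadjusted p under 0.05. Intermediate progenitors had 9, a median of -0.07 and 1. Cortical projection neurons had 15, a median of -0.05 and 0. Hippocampal patterning had 3, a median of -0.37 and 1. Ganglionic eminence and interneurons had 23 tested, a median of -0.01 and 2 genes higher in MAM unadjusted. Among them the neuropeptide gene Sst was 53.1 to 69.3 TPM in MAM and 17.7 to 56.6 TPM in Poly I:C, a log2 difference of 0.48 (limma adjusted p = 0.161). Neuronal maturation and synapse had 23, a median of 0.01 and 1 higher in MAM. Endothelium and pericytes had 16, a median of -0.04, 1 higher in MAM and 2 higher in Poly I:C. Macroglia (10 tested, median -0.07), blood (11, median 0.02) and meninges (12, median 0.00) had none at an unadjusted p under 0.05.

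Markers of tissue next to the dissected region varied within groups. The 4 thalamus genes tested had a median of -0.74, the farthest from 0 among lists with at least 3 genes tested, with no call and 2 at an unadjusted p under 0.05. Their list summed to 0.927 to 1.58 TPM in MAM pups, 0.90 to 5.42 TPM in Poly I:C pups and 1.10 to 4.33 TPM in saline pups. Tcf7l2, a thalamic transcription factor, was 0.151 to 0.256 TPM in MAM and 0.143 to 2.03 TPM in Poly I:C (median 0.887, limma adjusted p = 0.0928). Poly I:C pups thus covered the whole MAM range and went beyond it. Gbx2 and Lhx9, of the same list, had log2 differences of -0.97 and -0.51 (limma adjusted p = 0.306 and 0.159). Striatum genes had 12 tested, a median of -0.17 and none at an unadjusted p under 0.05. Choroid plexus genes had 10 tested and none at that threshold, with a median of -0.24, and summed to 58.7 to 215 TPM in MAM and 34.2 to 254 TPM in Poly I:C. The part of these tissues in the genes called was not tested.

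Immediate early genes had no call among 9 in limma. All 9 were higher in MAM by sign, 2 of them at an unadjusted p under 0.05, with a median of 0.22. Over all genes, 34.65% were higher in MAM by sign and 4.40% at that threshold. Nr4a1, an activity-induced nuclear receptor, was 0.336 ± 0.0909 TPM in MAM and 0.238 ± 0.0398 TPM in Poly I:C (limma adjusted p = 0.12). Glucocorticoid response genes had none among 7, with 2 each way unadjusted. Of these, the metallothionein Mt2A had means of 2.00 and 1.31 TPM (limma adjusted p = 0.111). Hypoxia genes had none among 14, with 1 each way unadjusted and a median of -0.03.

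**Figure D5:**
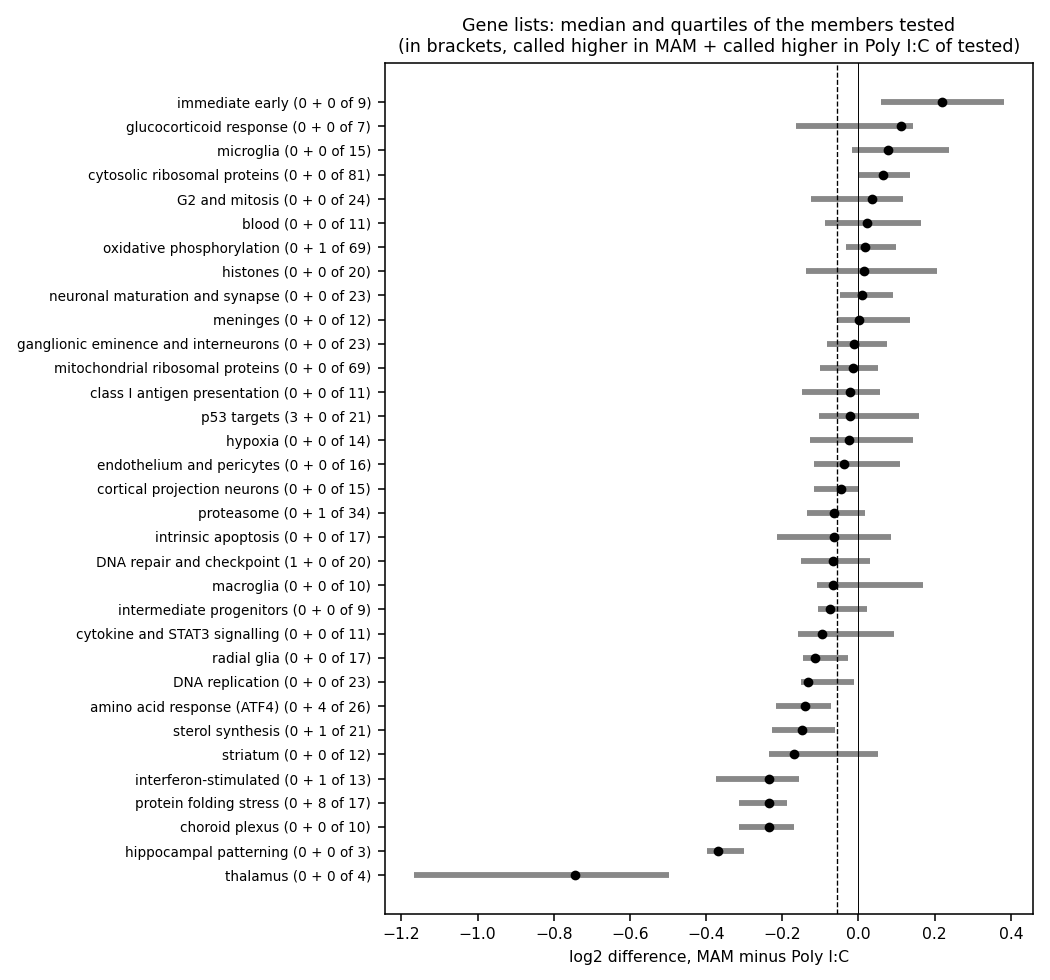
Median (point) and quartiles (bar) of the log2 difference, MAM minus Poly I:C, over the tested members of each gene list with at least 3, with called counts in brackets and the median of all genes as a dashed line at -0.06. Protein folding stress had 8 called members at a median of -0.24, and the thalamus list lay farthest from 0 at -0.74 with none called.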

How the data were processed

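RNA from hippocampus and neocortex of 24 pups was sequenced as stranded mRNA libraries. The authors trimmed reads, aligned them to rn6 with STAR (2.4.1d), used the E/M tool of Partek to quantify them over RefSeq transcripts, and deposited TPM values to which 0.0001 had been added. These sum to 70350.1 in every pup and give no read counts, so absolute depth is unknown, and relative depth was estimated from the smallest steps among low genes.

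All 24 pups entered a limma fit (version 3.58.1, R 4.3.3) with group as the factor and a variance trend, on log2(TPM + 0.01), and the contrast was MAM minus Poly I:C. Fold changes of low genes are understated by the added 0.01. Genes needed a mean of at least 0.1 in both groups, and the other 7668 genes were not tested. The Benjamini-Hochberg adjustment ran over all genes tested. Exact two-sided permutation tests used 924 splits. The fit was tested on simulated data. Of all gene names, 2 occur more than once and 26 had turned into dates.

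Each sample title ends in a number such as 2.1, whose leading digit was taken as the litter. The comparison and the 34 gene lists were chosen with earlier results of these data known. Genes named are, among called genes with a mean of at least 0.5 in the higher group, the 12 with the largest difference each way, up to 4 members of each list with the lowest p, and a set of anchor genes, of which part is printed. A further 27 genes named, together with Acat1, Ech1, Acaa1a, Ifi47 and those named in the closing section, were chosen after their values were seen. Lists are described by counts and medians without a set test. Spans and promoters are from RefSeq (GRCr8), matched by name, and no coordinates were compared with rn6. Alternatives covered the pseudocount, the filter, scaling, gene span, the pups and litters in the fit, weights, covariates and the test. Results of a few genes are not reported here.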

Additional observations from a re-analysis of the deposited data

Results flagged for a closer look

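In 176 groups of 6 pups (88 genes in MAM and in Poly I:C), 12 held a pup whose gap to the next, as a share of the range on the log2 scale, was above the 95% limit of Dixon's test. Chance gives about 1 in 20 groups. Among genes called, Lsr was 1.71 TPM in MAM pup 2.1 against 1.44 to 1.48 in its group, Psmd5 was 1.67 TPM in MAM pup 1.1 against 1.92 to 2.01, Galk1 was 10.2 TPM in MAM pup 2.2 against 8.55 to 9.08, and Zfp638 was 1.38 TPM in Poly I:C pup 1.3 against 1.16 to 1.20. Among genes without a call, the MAM pups that stood apart were 2.1 for Bax (6.51 TPM against 7.52 to 8.14) and for Rpl37a (12.9 TPM against 17.8 to 18.9), 2.3 for Mcm6 (2.43 TPM against 2.10 to 2.21), 1.2 for Mt2A (1.53 TPM against 1.99 to 2.19) and 1.1 for Sst (69.3 TPM against 53.1 to 58.4). In Poly I:C they were pup 2.2 for Sst (17.7 TPM against 44.5 to 56.6), pup 1.3 for Idi1 (8.32 TPM against 5.23 to 6.05) and pup 2.3 for Gbx2 (0.172 TPM against 0.887 to 2.11).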

How the results depend on the processing

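Over 38 alternatives (35 planned, 3 added after seeing the data: Eif2s3y as a covariate, median of ratios scaling with the span trend removed, and 12 pups with litter as a random effect), no difference among 88 named genes changed sign, and 2515 gene results kept their side of the threshold, 723 lost a call and 78 gained one. All 210 genes called kept their sign wherever they were tested. The number called was 126 without a filter, 132 with the span trend removed (also after median of ratios scaling), 403 with only the 12 pups in the fit, 2192 with sample weights, 121 with litter as a random effect (504 with it in 12 pups), 607 with the Y-linked covariate and 634 with Eif2s3y alone. It was 2 on litter means, namely Eif2s3y of the Y chromosome and Ddx3, and 0 by exact rank test, which had 1943 genes at an unadjusted p under 0.05 and a lowest adjusted p of 0.0525. Without single pups it was 15 to 291 (MAM 1.1: 62, 1.3: 40, 2.3: 139, and Poly I:C 1.1: 62, 1.2: 72, 2.1: 80, 2.2: 122), and without MAM litter 1, MAM litter 2, Poly I:C litter 1 and Poly I:C litter 2 it was 5, 1, 37 and 43. At an unadjusted p under 0.05, counts were 1179 with means above 1, 3624 with weights, 1335 on litter means, 1244 without MAM litter 1 and 1372 without MAM litter 2. Fewer pups or genes enter several of these fits. Otherwise the cause was not tested. Samples sharing a number come from different dams, and the pups were not treated as paired. Their deviations correlated at -0.259 to 0.282, 5 of 6 above 0.1, and 3 of 6 pups correlated best with their own number. Whether samples of the same number shared a step of processing was not tested. A replicate block on the number gave 461 genes, and a block on the litter number 344.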

Other observations

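Families of genes that handle RNA and proteins were counted after their values were seen, by the stem of the symbol. All 20 cytosolic aminoacyl-tRNA synthetases tested were higher in Poly I:C by sign, with a median log2 difference of -0.18, and 4 were called (Aars, Lars, Rars and Tars), of which Aars, Rars and Tars under none of the other scalings. All 18 Hnrnp genes, which bind nascent RNA, were higher in Poly I:C by sign, with a median of -0.15 and 3 called (Hnrnpc, Hnrnph3 and Hnrnpu). Of 31 Ddx helicases, 26 were higher in Poly I:C by sign and 4 were called (Ddx1, Ddx18, Ddx21 and Ddx50). Of 18 nucleoporins, 17 were higher in Poly I:C by sign and 2 were called (Nup153 and Nup205). All 7 Cct genes, subunits of a cytosolic chaperonin, were on that side by sign, and Cct6a was called. Of 37 Dnaj co-chaperones, 29 were on that side and 3 were called (Dnaja1, Dnaja3 and Dnajb11). Of 163 Zfp zinc finger genes, 137 were on that side, 8 were called higher in Poly I:C and 1 (Zfp956) higher in MAM. Over all genes tested, 65.35% were higher in Poly I:C by sign and 1.77% were called so.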
